A study of Mus musculus with 59 samples.

Results

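The 9 genes examined here encode proteins on which the small molecules of neuronal chemical reprogramming act, or through which they act. They are the kinase genes Gsk3a and Gsk3b, the BET genes Brd2 and Brd3, the ROCK kinase genes Rock1 and Rock2, and Ctnnb1 (beta-catenin), Creb1 (CREB) and Mef2c (a MEF2 factor). They were chosen by symbol from a table of 20689 genes, and all 9 were found in it. The table holds 59 single mouse cells of 1 group, labelled chemical-induced neurons with an age label of 12 weeks, from a study of converting astrocytes to neurons in the living brain. The contents of each cell were drawn into a patch pipette and sequenced as 1 library. No compound, dose, strain or animal is named in the labels used here, and no untreated cells, astrocytes or other neurons were analysed here. The 59 cells were therefore 1 sample, and the values below describe these cells without a test between conditions.

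GSK3 is a kinase that phosphorylates beta-catenin within a destruction complex and so marks it for degradation; an inhibitor of GSK3 lets beta-catenin build up and act with TCF/LEF factors on Wnt target genes. BET proteins bind acetylated histones and recruit the elongation machinery, and BET inhibitors displace them from chromatin. ROCK kinases act below RhoA on myosin and on cofilin, and ROCK inhibitors loosen actomyosin tension. CREB is phosphorylated by the cAMP-dependent kinase PKA and drives immediate early and neuropeptide genes, and MEF2 factors are held back by class IIa histone deacetylases until calcium signals release them.

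Levels are FPKM, that is, fragments mapped to a gene divided by its exon length and by the total mapped fragments of the cell, and a gene was called detected at an FPKM of 1 or more. Intervals of shares are 95% limits by the exact Clopper-Pearson method and reflect counting error between cells, not differences between animals. A median of 3984 genes was detected per cell (475 to 10310), from an estimated median of 912996 fragments (29043 to 2950400). Of the 20 neuronal marker genes, at least 50% were detected in 47 of 59 cells, and the median member was found in 77.1% of cells. Oligodendrocyte markers were found as widely, with a list median of 74.6% over 10 genes, against 57.6% over 12 microglia genes and 37.3% over 12 astrocyte genes. Genes of other organs had a median of 5.08% (1.69 to 8.47% over the 5 measured of 8 listed genes). Those not measured have no row of values and were not counted as undetected.

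All 9 genes were detected in more cells than any of the measured genes of other organs. At this threshold Gsk3b was found in the most cells and Creb1 in the fewest. At least 50% of the cells had Gsk3b, Rock2, Mef2c, Brd2, Ctnnb1 and Gsk3a, which is 6 of the 9 genes, where 11.7% of all 20689 genes reached that share. The median gene of the 9 was detected in 54.2% of cells and the median gene of the whole table in 11.9%. In descending order the shares were 83.1% for Gsk3b, 76.3% for Rock2, 62.7% for Mef2c, 61.0% for Brd2, 54.2% for Ctnnb1, 50.8% for Gsk3a, 44.1% for Rock1, 40.7% for Brd3 and 33.9% for Creb1. The intervals of neighbours in this order overlapped, while the interval of Gsk3b lay wholly above those of Ctnnb1, Gsk3a, Rock1, Brd3 and Creb1.

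The order depended on the threshold. Counted in fragments, the threshold was higher for longer genes at a given depth. With any FPKM above 0, Gsk3b came first at 88.1% of cells, ahead of Rock2 and Mef2c at 83.1% each. At 5 FPKM or more Rock2 came first with 36 cells (61.0%), ahead of Gsk3b with 34 (57.6%), followed by Brd2 and Ctnnb1 with 30 each (50.8%) and Mef2c with 26 (44.1%). Rock1 then had 17 cells (28.8%), Gsk3a 15 (25.4%), Brd3 13 (22.0%) and Creb1 8 (13.6%), each over 1.5 times below its share at 1 FPKM.

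The order also moved when the values were rescaled to other exon lengths. For 5 of the 9 genes the spacing of the low values gave a length that differs by over 1% from that of the GENCODE M21 annotation, and the largest gaps were those of Rock1 (6187 against 18094 bases) and Rock2 (8012 against 13897 bases). All 5 lengths were shorter than those of GENCODE, and the deposited values were rescaled to the GENCODE lengths. Fragments in the added bases were not counted, so the rescaled values of these 5 genes could only fall. The order after a recount was not tested. Rescaled in this way, the median of Rock2 was 4.44 FPKM, below 5.48 for Ctnnb1 and 5.17 for Brd2, and it was detected in 41 cells (69.5%). Rock1 was then detected in 19 cells (32.2%), fewer than the 20 of Creb1, and Gsk3a in 28 (47.5%). Values below are those of the deposited FPKM unless GENCODE lengths are named.

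**Figure D1:**
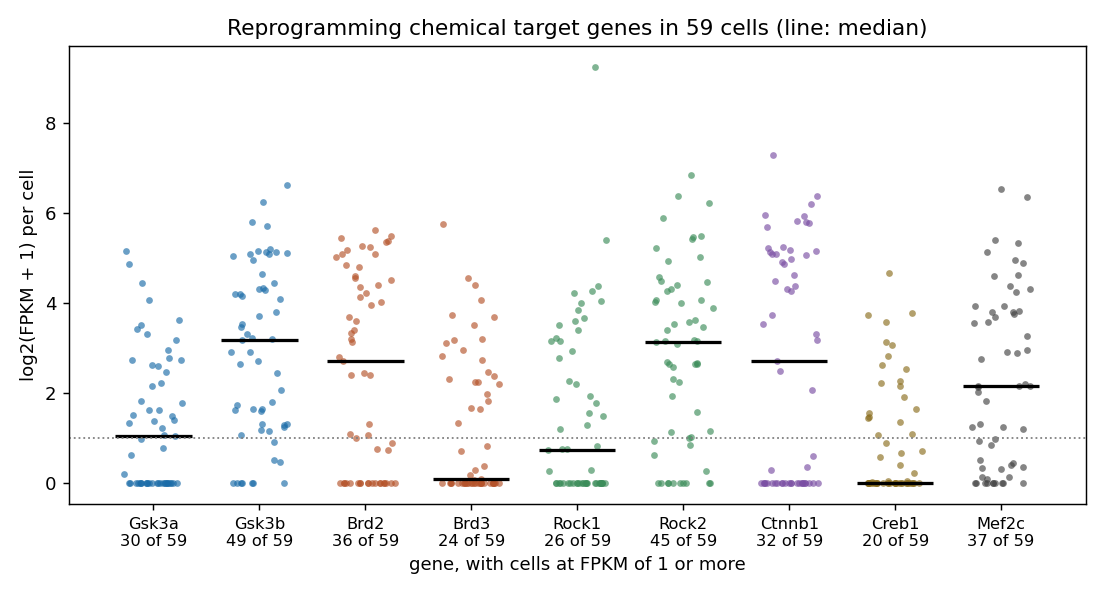
Levels of the 9 genes as log2(FPKM + 1), with 1 point per cell and a line at the median over 59 cells; the dotted line is the detection threshold. Gsk3b and Rock2 have the highest medians in the deposited values (8.06 and 7.71 FPKM; 4.44 FPKM for Rock2 with GENCODE lengths), 24 to 30 cells lie at 0 for Gsk3a, Brd3, Rock1, Ctnnb1 and Creb1, and 1 cell stands far above the others for Rock1.

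Gsk3b (ENSMUSG00000022812.14, chromosome 16, 38089001 to 38246084, GRCm38) encodes the beta form of the kinase. It was detected in 49 cells (83.1%, interval 71.0 to 91.6%), from 0 FPKM in 7 cells to 96.3 FPKM in cell 26, with a median of 8.06 FPKM. Its level was 5 FPKM or more in 34 cells. Gsk3a (ENSMUSG00000057177.12, chromosome 7, 25228258 to 25237851), which encodes the alpha form, was detected in 30 cells (50.8%, interval 37.5 to 64.1%). It ran from 0 FPKM in 25 cells to 34.8 FPKM in cell 32, with a median of 1.07 FPKM. The alpha gene was therefore both less widely detected and lower in level per length. Its exon length behind the FPKM was 2260 bases against 9831 for Gsk3b, so equal FPKM gave it fewer fragments. The part of this length difference in its lower detection was not tested.

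Within cells the beta form was the higher one in most cases. Gsk3b exceeded Gsk3a in 44 of 59 cells (74.6%, interval 61.6 to 85.0%), Gsk3a was higher in 8 cells, and both were at 0 in 7. The median within-cell difference of log2(FPKM + 1), Gsk3b minus Gsk3a, was 1.62 (SD 1.94 over cells). Both genes were detected in 29 cells, Gsk3b alone in 20 and Gsk3a alone in 1. At least 1 GSK3 gene was thus detected in 50 cells (84.7%, interval 73.0 to 92.8%). Cell 32 went the other way, with 34.8 FPKM of Gsk3a and 1.47 FPKM of Gsk3b.

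Among genes that regulate GSK3 or are its substrates, cytoskeletal substrates came first. Dpysl2 (an axon growth protein) was found in 53 cells with a median of 57.5 FPKM, Map1b (a microtubule-associated protein) in 52 at 33.7 FPKM and Mapt (tau) in 50 at 43.5 FPKM. Gsk3b was found together with Mapt in 44 cells. The product of the 2 shares, the count for genes detected independently of each other, was 41.5 cells. The least detected members were Frat1, a GSK3-binding protein gene, in 2 cells and its relative Frat2 in 5. The median over the 14 listed genes was 40.7% of cells, with 4 of them in at least 50% of cells.

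Brd2 (ENSMUSG00000024335.20, chromosome 17, 34112023 to 34122634) encodes a broadly expressed BET protein. It was detected in 36 cells (61.0%, interval 47.4 to 73.5%), from 0 FPKM in 19 cells to 48.1 FPKM in cell 57, with a median of 5.56 FPKM. When detected it was seldom low, with 30 cells at 5 FPKM or more. Brd3 (ENSMUSG00000026918.16, chromosome 2, 27445579 to 27507662), another BET gene, was present at detectable level in 24 cells (40.7%, interval 28.1 to 54.3%). It ran from 0 FPKM in 28 cells to 53.0 FPKM in cell 26, with a median of 0.0715 FPKM.

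Brd2 exceeded Brd3 in 32 cells (54.2%, interval 40.8 to 67.3%), Brd3 was higher in 9, and both were at 0 in 18. In the 20 cells with both genes detected, Brd2 was higher in 15. The median difference of log2(FPKM + 1), Brd2 minus Brd3, was 0.65 over all cells and 0.87 in those 20. At least 1 of the 2 genes was detected in 40 cells (67.8%, interval 54.4 to 79.4%). Brdt, which is known as a testis gene, was detected in 10 cells (16.9%, interval 8.44 to 29.0%), above the 8.47% of the highest gene of other organs but with an interval that includes it.

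The elongation partners of BET proteins were found in fewer cells than Brd2. Polr2a (the large subunit of RNA polymerase II) was detected in 28 cells and Larp7 (a regulator of the elongation kinase complex) and Med1 (a Mediator subunit) in 20 each. Cdk9, the elongation kinase itself, was detected in 13 cells. The median over the 8 genes of this list, Brdt included, was 29.7% of cells.

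Rock2 (ENSMUSG00000020580.10, chromosome 12, 16894895 to 16987823) encodes the ROCK form known to predominate in brain. It was detected in 45 cells (76.3%, interval 63.4 to 86.4%), from 0 FPKM in 10 cells to 114 FPKM in cell 32, with a median of 7.71 FPKM. Rock1 (ENSMUSG00000024290.9, chromosome 18, 10064401 to 10182045) reached the threshold in 26 cells (44.1%, interval 31.2 to 57.6%). It ran from 0 FPKM in 27 cells to 603 FPKM in cell 53, with a median of 0.657 FPKM. The second highest cell for Rock1, cell 25, had 40.9 FPKM.

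Cell 53 carried 71.1% of the Rock1 FPKM summed over all cells, and the mean was 14.4 FPKM with it and 4.22 FPKM without it. The value rested on 4922 recovered fragments. That cell had 519 genes detected from an estimated 1318871 fragments, Rock1 was its only detected gene of the 9, and Rock1 took rank 136 among its genes by FPKM. The mean level of Rock1 thus rested on 1 library.

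Rock2 exceeded Rock1 in 38 cells (64.4%, interval 50.9 to 76.4%), Rock1 was higher in 13, and both were at 0 in 8. Both were detected in 22 cells, and in 14 of those Rock2 was higher. At least 1 of them was detected in 49 cells (83.1%). Rescaled to the GENCODE lengths, which lowered Rock1 more than Rock2, Rock2 was higher in 69.5% of cells.

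**Figure D2:**
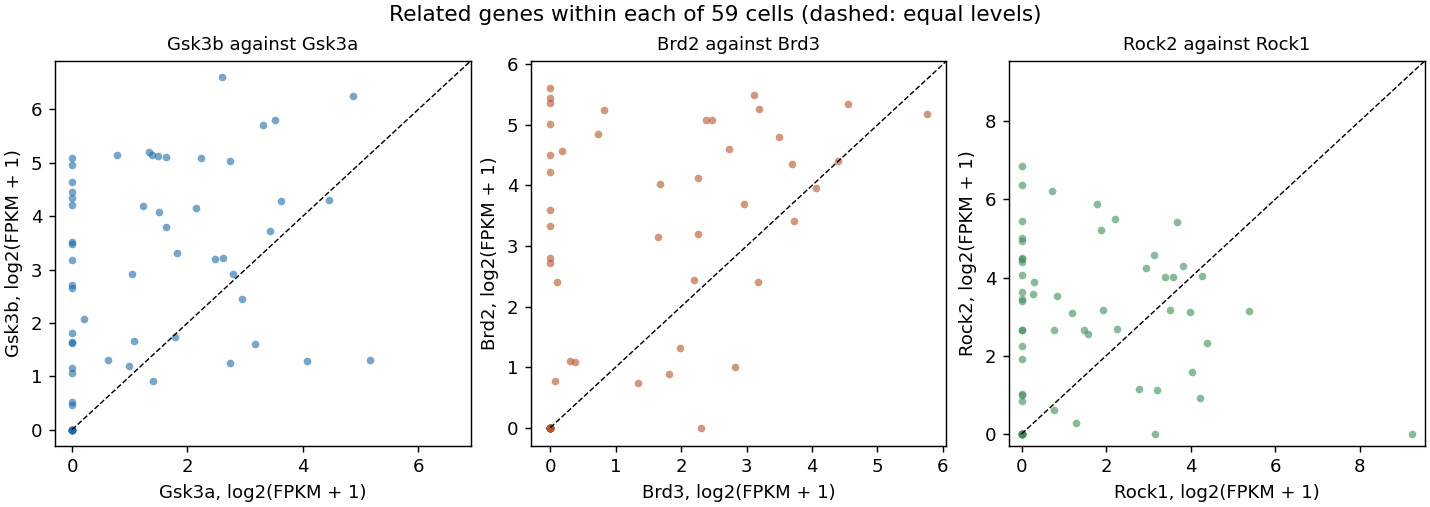
Levels of related genes within each of 59 cells, as log2(FPKM + 1), with Gsk3b, Brd2 and Rock2 on the vertical axes, Gsk3a, Brd3 and Rock1 on the horizontal axes and a dashed line at equal levels. Points above the line number 44, 32 and 38 of 59 cells, and points on the vertical axis are cells in which the horizontal gene was at 0.

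Of the ROCK regulators and substrates, 10 of 20 genes reached at least 50% of cells, with 51.7% for the median gene. Cfl1 (cofilin, the actin-severing end point of the pathway) was found in 58 cells with a median of 1129 FPKM. Rhob (a small GTPase) was found in 53 cells and Ppp1cb (the catalytic subunit of myosin phosphatase) in 43. Rhoa, the GTPase that activates ROCK, was detected in 42 cells and together with Rock2 in 34, near the 32.0 given by the product of the shares. The least detected were Rnd3 (an atypical GTPase that inhibits ROCK1) in 10 cells and Myl9 (a smooth muscle myosin light chain) in 9.

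Ctnnb1 (ENSMUSG00000006932.17, chromosome 9, 120929216 to 120960507) encodes beta-catenin, a protein of cadherin junctions and the effector of Wnt signalling. It was detected in 32 cells (54.2%, interval 40.8 to 67.3%), from 0 FPKM in 24 cells to 156 FPKM in cell 62, with a median of 5.58 FPKM. Its cells lay mostly at 0 or high. Of the 32 cells with Ctnnb1, 30 had 5 FPKM or more, and the median among them was 32.8 FPKM, the highest such median of the 9 genes. Cell 62 had 1074 genes detected and none of the other 8 genes. The kinase gene Gsk3b and its substrate gene Ctnnb1 were found together in 27 cells (45.8%, interval 32.7 to 59.2%), Gsk3b alone in 22, Ctnnb1 alone in 5 and neither in 5. The product of the shares was 26.6 cells, so the joint count was near that of independent detection.

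Wnt receptors, relay proteins and the beta-catenin destruction complex formed 1 list, whose genes ranged from 44 cells down to 2. Csnk1a1 (casein kinase 1 alpha, which primes beta-catenin) was found in 44 cells at a median of 13.4 FPKM, Apc (the scaffold of the complex) in 41 at 3.75 FPKM and Fbxw11 (a ubiquitin ligase subunit) in 34. Ctnnb1 and Apc were found together in 27 cells, against 22.2 from the product of the shares. Axin2 was the least detected gene of the complex, in 5 cells. The Wnt receptor gene Fzd2 was detected in 2 cells and the signal relay gene Dvl2 in 3. Over the 17 measured genes the median was 23.7% of cells, and 4 reached at least 50%.

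At cadherin junctions, Ctnna1 (alpha-catenin) and Ctnnd2 (a neural delta-catenin) were detected in 33 cells each and Cdh2 (N-cadherin) in 26. Jup (plakoglobin) was found in 24 cells and Ctnnd1 (p120 catenin) in 14.

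TCF/LEF factors and Wnt target genes formed the least detected of the 9 pathway lists, with a median of 16.9% over 13 measured genes and 0 genes in at least 50% of cells. Ccnd1 (cyclin D1) was the highest in 21 cells, followed by the beta-catenin cofactor genes Pygo2 in 19 and Bcl9 in 17. Axin2, which is also a direct Wnt target often used as a readout, was found together with Ctnnb1 in 3 of its 5 cells (product of the shares 2.71 cells). Of the TCF/LEF factors, Tcf7l2 was detected in 14 cells, 11 of them with Ctnnb1 (product of the shares 7.59 cells), and Tcf7 in 6. Lef1 was detected in 1 cell and Tcf7l1 in 0 of 59, for which the interval reaches 6.06%. At least 1 TCF/LEF factor was detected in 17 cells (28.8%, interval 17.8 to 42.1%), and in 12 of those Ctnnb1 was detected as well. At a median of 16.9% these genes still lay above the 11.9% of the median gene of the table.

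Creb1 (ENSMUSG00000025958.14, chromosome 1, 64532645 to 64604548) encodes CREB, the cAMP-responsive transcription factor. It was detected in 20 cells (33.9%, interval 22.1 to 47.4%), from 0 FPKM in 30 cells to 24.2 FPKM in cell 32, with a median of 0 FPKM. It was the lowest of the 9 genes in median and in mean level, at 2.03 FPKM, and in share of cells in the deposited values. Rescaling to GENCODE lengths, which could only lower Rock1, put the share of Rock1 below that of Creb1. A further 9 cells had values above 0 and below 1 FPKM. Among its relatives, Crem (the cAMP-responsive element modulator) was detected in 20 cells and Atf1 in 12, and at least 1 of the 3 was detected in 30 cells (50.8%).

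The cAMP pathway above CREB was most visible through PKA subunits. Prkacb (a catalytic subunit) was detected in 51 cells at a median of 25.6 FPKM, Prkar1a (a regulatory subunit) in 49 at 88.8 FPKM and Prkar1b in 43 at 42.8 FPKM. Every one of the 20 cells with Creb1 also had Prkacb, where the product of the shares gives 17.3 cells. The coactivator gene Crebbp was detected in 26 cells and together with Creb1 in 12, against 8.81 from the product of the shares. The adenylyl cyclase genes Adcy8 and Adcy9 were the least detected, in 9 and 8 cells. The list had a median of 35.6% over 22 genes.

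CREB target genes stood first among the pathway lists in detection, with a median of 57.6% over 16 genes and 9 genes in at least 50% of cells. Fos was found in 57 cells at a median of 1160 FPKM, Egr1 in 55 at 137 FPKM and Junb in 52 at 105 FPKM, all immediate early genes. Pcsk1 (a prohormone convertase) was found in 2 cells and Bdnf (a neurotrophin) in 7. All 20 cells with Creb1 had Fos, but so did 37 cells without it, and the levels of Creb1 and Fos had a Spearman correlation of -0.05 over 59 cells.

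Promoters of these targets were searched for the site that CREB binds, the cAMP response element TGACGTCA, a palindrome that contains the shorter site TGACG on each strand. The windows that hold the full element are shown, with short sites of Fos and of the genes on which the chemicals act for comparison. Sequences are from RefSeq on GRCm38.p6, 5′ to 3′ on the strand of the gene, with the site in capitals and 30 bases on either side. A further short site in the Pcsk1 window is left in lower case. Both strands were searched over windows from 250 bases before to 50 bases after each start site. The full element was present in 1.79% of all 32851 promoters and the short site in 20.8%. The 13 CREB targets that matched have 20 promoters in the table, of which 4 (20.0%) held the full element and 14 (70.0%) the short site, with Bdnf holding it in 1 of its 7. These genes were listed because they are known as CREB targets, so their higher share is no independent result. Egr1, Sik1, Vgf and Rock1 were not matched and not searched. The 8 matched genes on which the chemicals act have 13 promoters, of which 0 held the full element and 3 (23.1%) the short site, a share near that of all promoters. The full elements were in these targets:
Sst, chr16:23890855-23890922, minus strand: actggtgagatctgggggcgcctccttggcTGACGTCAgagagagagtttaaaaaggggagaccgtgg
Scg2, chr1:79440057-79440124, minus strand: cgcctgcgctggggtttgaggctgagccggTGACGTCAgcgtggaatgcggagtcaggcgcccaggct
Dusp1, chr17:26508578-26508645, minus strand: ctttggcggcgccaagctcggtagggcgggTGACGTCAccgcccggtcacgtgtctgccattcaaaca
Pcsk1, chr13:75089749-75089816, plus strand: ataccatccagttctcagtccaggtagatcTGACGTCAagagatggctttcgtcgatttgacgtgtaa
Fos, the most widely detected target, held 2 short sites, of which the one nearest the start site is shown:
Fos, chr12:85473794-85473858, plus strand: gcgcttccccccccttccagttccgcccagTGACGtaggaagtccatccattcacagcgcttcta
Of the 9 genes, these held the short site, in the windows shown on the opposite strand (Ctnnb1 held 2, and the first from the 5′ end is shown):
Gsk3a, chr7:25237895-25237959, minus strand: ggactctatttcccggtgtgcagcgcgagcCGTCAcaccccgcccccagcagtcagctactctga
Ctnnb1, chr9:120933481-120933545, plus strand: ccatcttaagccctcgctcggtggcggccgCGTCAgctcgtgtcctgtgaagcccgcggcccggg
Brd2, chr17:34121867-34121931, minus strand: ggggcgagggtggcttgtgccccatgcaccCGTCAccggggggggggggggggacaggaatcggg

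The targets with a full element spanned the list. Dusp1 (a MAP kinase phosphatase) was detected in 44 cells, Scg2 (a secretory granule protein) in 40, Sst (somatostatin) in 34 and Pcsk1 in 2. A match describes the letters of the window and shows neither binding nor its absence.

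Mef2c (ENSMUSG00000005583.16, chromosome 13, 83504034 to 83667080) encodes a MEF2 factor used in cortical neurons and also in microglia. It was detected in 37 cells (62.7%, interval 49.1 to 75.0%), from 0 FPKM in 10 cells to 91.0 FPKM in cell 11, with a median of 3.44 FPKM. The next highest value was 80.9 FPKM in cell 32. Mef2c had a broad low tail, with 12 cells above 0 and below 1 FPKM. Its exon length behind the FPKM was the longest of the 9 genes, at 15715 bases. At a given depth, 1 FPKM therefore took more fragments than for the other genes. The part of this length in the tail and in the share was not tested. The share of Mef2c was 83.1% with any FPKM above 0, 76.3% with at least 3 recovered fragments and 44.1% at 5 FPKM or more. Mef2a was detected in 37 cells too (median 5.15 FPKM), 25 of them shared with Mef2c (product of the shares 23.2 cells), and Mef2d in 23. At least 1 of the 3 was found in 51 cells (86.4%, interval 75.0 to 94.0%), and all 3 in 13.

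Among the regulators of MEF2, calcineurin genes came first, with Ppp3ca in 54 cells at 38.0 FPKM, Ppp3r1 in 48 and Ppp3cb in 43. Mef2c and Ppp3ca were found together in 36 of the 37 cells with Mef2c, with a Spearman correlation of 0.55 over 59 cells. The joint count was near the product of the shares, 33.9 cells. Hdac5, a class IIa deacetylase that represses MEF2, was detected in 27 cells, 20 of them with Mef2c (product of the shares 16.9 cells). Nfatc1 and Nfatc3, calcineurin-regulated factors, were detected in 5 and 4 cells. The list had a median of 36.4% over 16 measured genes, 6 of them in at least 50% of cells.

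**Figure D3:**
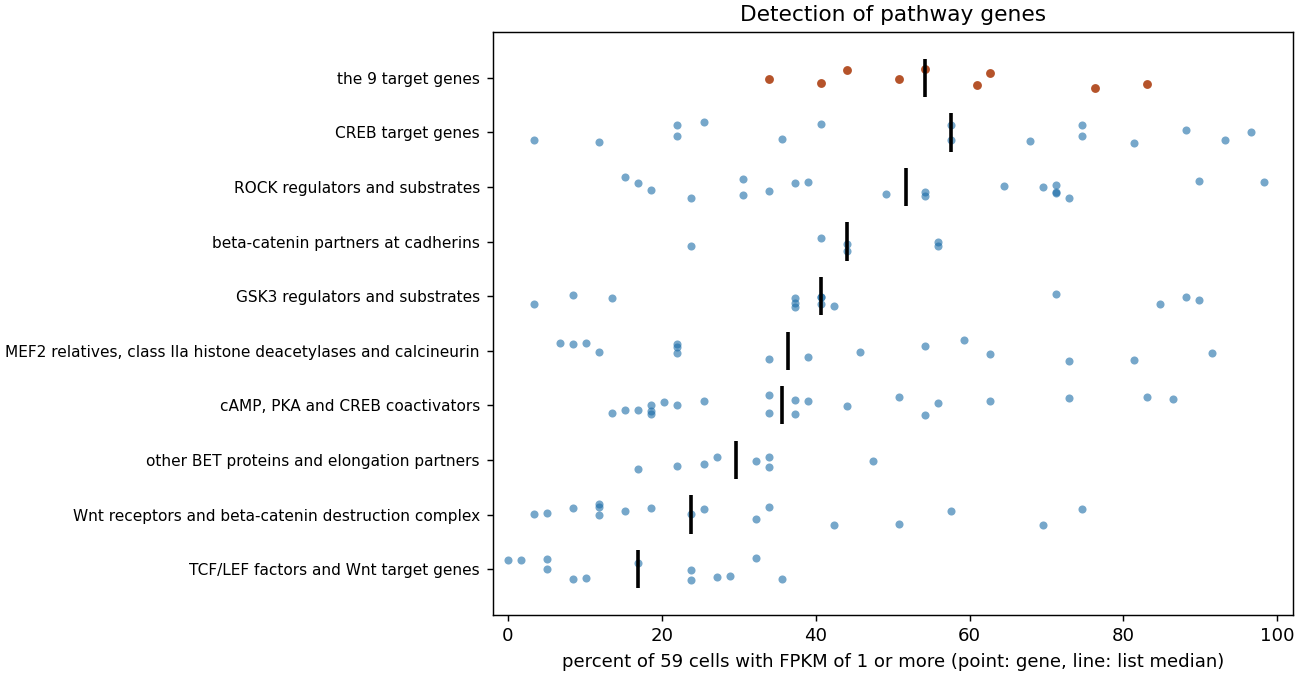
Detection of the genes of 9 pathway lists and of the 9 target genes, as the percent of 59 cells at an FPKM of 1 or more, with 1 point per gene and a line at each median. CREB target genes have a median of 57.6%, TCF/LEF factors and Wnt target genes have 16.9%, and the 9 target genes have 54.2%.

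A cell had a median of 5 of the 9 genes detected (quartiles 3 and 7, range 1 to 9). All 9 were found in 3 cells, cells 17, 24 and 33, which had 9148, 6972 and 7126 genes detected. Only 1 of the 9 was found in 4 cells, a different gene in each. These were Gsk3b in cell 27, Mef2c in cell 44, Rock1 in cell 53 and Ctnnb1 in cell 62, which had 475 to 1683 genes detected. At least 1 GSK3, 1 BET (Brd2 or Brd3) and 1 ROCK gene were found together in 34 cells (57.6%, interval 44.1 to 70.4%). Adding Ctnnb1, Creb1 and Mef2c left 8 cells (13.6%, interval 6.04 to 25.0%), all with at least 5921 genes detected.

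The number of the 9 genes found in a cell moved with the total number of genes found in it, with a Spearman correlation of 0.82 over 59 cells. Cells with at least 2000 genes had a median of 5.5 of the 9 and the other 13 cells had 3. Across genes, the correlation of the level with genes detected ran from 0.23 for Rock2 and 0.24 for Mef2c to 0.59 for Brd3. In the 46 cells with at least 2000 genes, Gsk3b was detected in 89.1%, Rock2 in 87.0% and Creb1 in 41.3%. The part of missed RNA in the zeros was not tested.

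**Figure D4:**
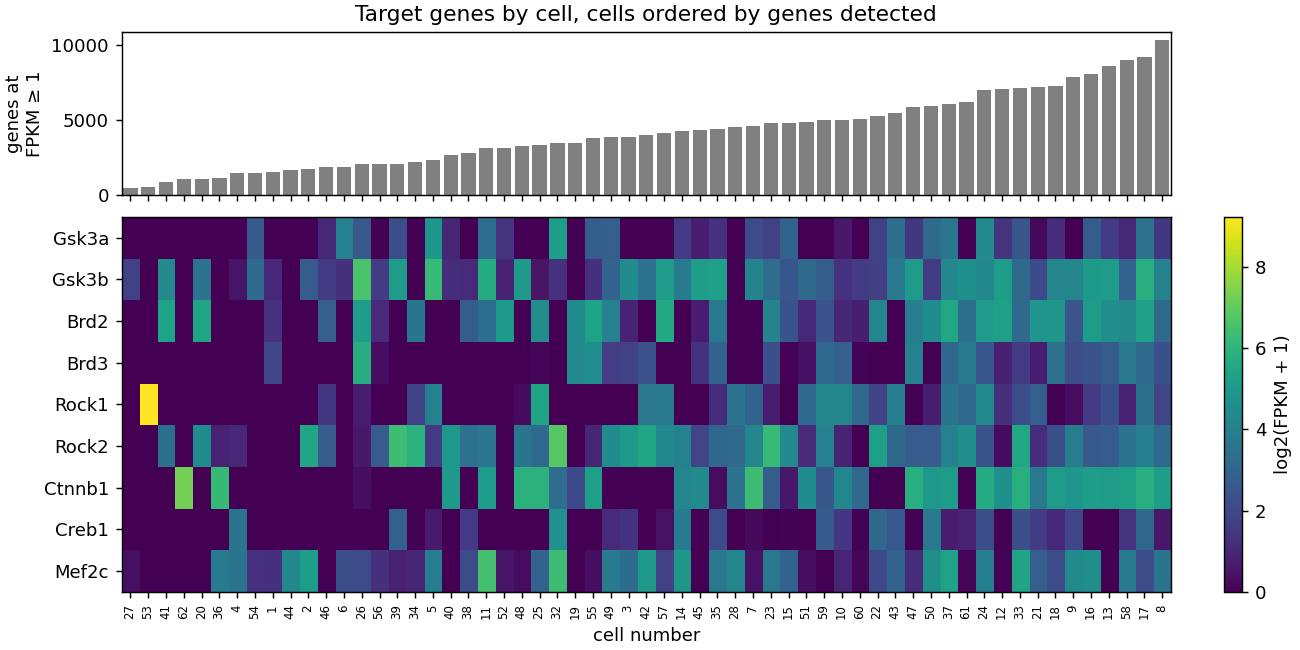
Levels of the 9 genes as log2(FPKM + 1) in each of 59 cells, ordered by the number of genes detected, which the grey bars show. Cells on the right, with up to 10310 genes, have up to 9 of the 9 genes, and several cells on the left have 1, among them cell 53 with Rock1 at 603 FPKM.

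Single cells set the upper end of several genes at once. Cell 32 had the highest value of Gsk3a, Rock2 and Creb1 and the second highest of Mef2c, with 0 FPKM of Brd2, Brd3 and Rock1. Cell 26 had the highest value of Gsk3b and of Brd3. Values in detected cells rested on many fragments for most genes, with a median of 246.5 recovered fragments for Ctnnb1, 123 for Brd2, 108 for Mef2c, 105 for Rock2, 92 for Gsk3b, 65 for Creb1 and 58 for Brd3. The median was 37.5 for Rock1 and 8 for Gsk3a. Gsk3a thus rested on the fewest fragments of the 9, and fragments amplified from 1 cell are not independent molecules.

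The 9 genes did not form 1 shared pattern over cells. Of the 36 pairs, 33 had a Spearman correlation above 0, with a median of 0.16 and a range of -0.07 to 0.51. Given the number of genes detected, the median partial correlation was -0.02 and 15 pairs were above 0. The highest pair was Brd2 and Brd3, at 0.51 and 0.35 given genes detected, and they were found together in 20 cells. Gsk3a and Gsk3b followed at 0.39, with a partial correlation of 0.29. Pairs from different classes came close, with Gsk3a and Mef2c at 0.37 (0.32 given genes detected) and Rock2 and Creb1 at 0.36 (0.29). Rock1 and Rock2 had a correlation of 0.08. Gsk3b and Ctnnb1, kinase and substrate, had a correlation of 0.14. The cells share library depth and quality, so these values describe the profiles and carry no p-value.

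Against the mean level of cell-type marker genes, Gsk3b, Gsk3a, Mef2c and Rock2 had the highest correlations with the neuronal list, and Brd2 and Rock1 the lowest. Gsk3b had a correlation of 0.56 with the neuronal list and 0.45 given genes detected, against -0.11 with the oligodendrocyte list and -0.10 with the microglia list. Mef2c had 0.41 with the neuronal list and 0.34 given genes detected, and its correlation with the microglia list was 0.25. Rock2 had 0.40 and 0.34 with the neuronal list. Mef2c and Rock2 followed the astrocyte list as closely, at 0.38 and 0.41. For Brd2 the correlation with the neuronal list was 0.11 and for Rock1 0.12, and both turned below 0 (-0.15 and -0.18) given genes detected. Ctnnb1 had a correlation of 0.40 with the microglia list, or 0.22 given genes detected.

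**Figure D5:**
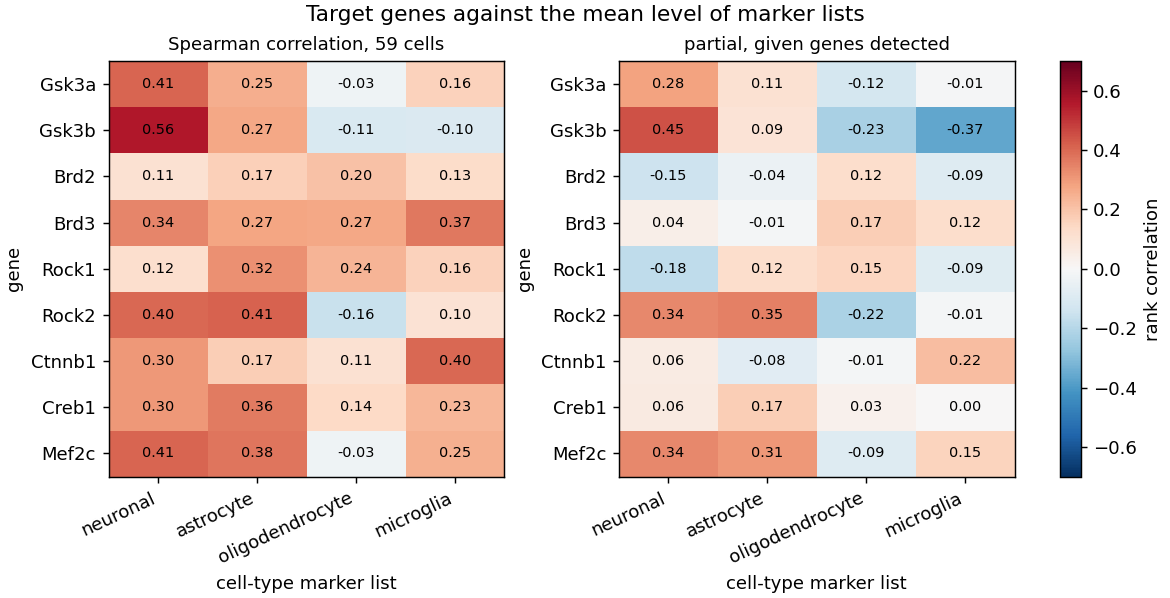
Rank correlation over 59 cells between the level of each of the 9 genes and the mean log2(FPKM + 1) of 4 cell-type marker lists, as Spearman correlation on the left and given the number of genes detected on the right. Gsk3b with the neuronal list is the highest value in both panels, 0.56 and 0.45.

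Cells were also set apart by which of the 4 lists had the highest mean, which gave 21 cells for the neuronal list, 28 for the oligodendrocyte list, 8 for the microglia list and 2 for the astrocyte list. Gsk3b was detected in 19 of the 21 cells with neuronal genes highest (median 16.9 FPKM) and in 23 of the 28 with oligodendrocyte genes highest (median 6.06 FPKM). Brd3 was detected in 6 of the 21 and 15 of the 28, and Mef2c in 12 of the 21, 16 of the 28 and 7 of the 8 with microglia genes highest. The intervals of these shares overlap, and the median number of genes detected was 3252, 4226 and 4693 in the 3 larger sets.

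The genes whose levels were most like each of the 9 were ranked by Spearman correlation over 59 cells among 4860 genes detected in at least 20 cells. For Mef2c they were Camk2n1 (an inhibitor of CaMKII) at 0.67, Lmo4 (a transcriptional cofactor) at 0.65 and Zbtb18 (a neuronal transcriptional repressor) at 0.63, and the same 3 were the most alike given genes detected. For Gsk3b they were Ndufaf2 (a complex I assembly factor) at 0.67, Camkk2 (a CaM kinase kinase) at 0.62 and Nrsn2 (a neuronal vesicle protein) at 0.62. For Rock2 they were Supt5 (an elongation factor) at 0.62, Celf5 (an RNA-binding protein) at 0.59 and Fkbp2 at 0.56. Brd3 had the highest single value, 0.72 with Tsen34 (a tRNA splicing subunit), followed by Mturn and Rab11b.

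The remaining genes had lists with values in the same range. For Brd2 they were Ptprs, Slc25a39 and Gnai2, all at 0.54. For Gsk3a they were Mink1 (a kinase) at 0.61, Atf2 (a CREB-family factor) at 0.57 and Fbxo33 at 0.57. For Ctnnb1 they were Ubxn2a at 0.65, Vps51 at 0.63 and Fam195b at 0.62, and for Creb1 Adora1 (the adenosine A1 receptor) at 0.61, Ubqln1 at 0.58 and Chd2 at 0.57. For Rock1 they were Ciao1 at 0.62, Brap at 0.55 and Pak4 (a kinase of the actin cytoskeleton) at 0.54. These are the highest of 4860 values per gene, and 5 of the 27 genes were again among the 3 most alike in the 39 cells with at least 500000 fragments.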

How the data were processed

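The authors deposited 1 table of FPKM values with 1 column for each of 59 cells. The submitters' processing notes list STAR 2.5.3a, featureCounts 1.5.3 and GRCm38. Annotation release, strand setting and multi-mapping rule: not given in the sources used here. How reads shared by related genes were assigned is therefore unknown. The 51 spike-ins were left out. Coordinates and exon lengths are those of GENCODE M21 on GRCm38, with lengths for 19393 of 20689 genes. Fragments per cell were estimated from the spacing of FPKM times length. A median of 73.3% of values up to 20 fragments were whole within 0.02. For each of the 9 genes the step of its own low values was used, which made at least 97.0% of them whole within 0.03. The step was chosen to make these same values whole, so this share is no check of the step or of the lengths. The values stayed FPKM and no count model was used. Log2 values are log2(FPKM + 1).

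No animals are named, so the cells were 1 sample and no test was made. The 9 genes, the pathway lists (138 entries, 132 of them measured, with Axin2 in 2 lists; 1 further listed gene is not reported here) and the marker lists were chosen with earlier results of these data known. Named genes are the 9, the 3 most and 2 least detected of each list, family relatives and the 3 most alike genes; others were named after their values were seen, to complete a pathway step or a joint count. The scripts were tested on simulated data. Work used Python 3.11.15, numpy 2.4.6, pandas 2.3.3 and scipy 1.17.1.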

Additional observations from a re-analysis of the deposited data

How the results depend on the processing

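Alternatives gave 255 values for 48 results: 205 were kept by the rules that follow, 44 moved and 6 changed sign. The rules were the 95% limits for shares, the quartiles for a number per cell and a factor of 1.5 for a count of genes. The SD over pairs served for the median pair correlation, and the SD over cells for mean levels. Correlations with the neuronal list were kept if their sign held, a loose rule. Given genes detected, those of Brd3 (0.34 to 0.04), Ctnnb1 (0.30 to 0.06) and Creb1 (0.30 to 0.06) were kept in this way. The Rock1 mean also counted as kept, at 14.4 FPKM with cell 53 and 4.22 FPKM without it. The number of the 9 genes in at least 50% of cells, 6 as reported, was 4 at 5 FPKM or more, 8 with any FPKM above 0 and 8 in cells with at least 2000 genes. The share of all genes in at least 50% of cells was computed only for the reported setting, at 11.7%. The alternative counts therefore have no such share beside them and are not read as a trait of the 9 genes. At 5 FPKM or more, Gsk3a was found in 25.4% of cells, Brd3 in 22.0%, Rock1 in 28.8% and Creb1 in 13.6%, each over 1.5 times below its reported share, and the list medians were 27.1% for GSK3 regulators, 10.2% for Wnt receptors and the destruction complex, 30.5% for cadherin partners, 6.78% for TCF/LEF and Wnt targets, 16.1% for BET partners, 35.6% for the ROCK list, 21.2% for cAMP and PKA and 14.4% for MEF2 relatives. Joint detection there was 32.2% for Gsk3b with Ctnnb1, 6.78% for Creb1 with Mef2c, 42.4% for Rock2 with Gsk3b and 18.6% for Brd2 with Brd3. With any FPKM above 0 it was 45.8% for Creb1 with Mef2c and 50.8% for Brd2 with Brd3. The single shares that moved in that setting were those of Mef2c, at 83.1%, and Creb1, at 49.2%. Mef2c also moved to 76.3% with at least 3 recovered fragments, and to 76.3% after rescaling without mitochondrial and rRNA genes. In cells with at least 500000 fragments, Gsk3b with Ctnnb1 was found in 61.5% and Brd2 exceeded Brd3 in 69.2%. The single shares that moved there were Brd2, at 74.4%, and Ctnnb1, at 69.2%. Both then lay above Mef2c, which was kept at 59.0%, so the order of the genes also depended on depth. In cells with at least 2000 genes the share of Rock2 moved to 87.0%. Brd2 exceeded Brd3 in 75.0% of cells with both, and by at least 1 on the log2 scale in 39.0% of all cells, as Gsk3b did Gsk3a in 57.6%. The median correlation of the 36 pairs was -0.023 given genes detected. With the neuronal list, Rock1 had -0.068 by Pearson's r, -0.034 in cells with at least 2000 genes and -0.18 given genes detected, and Brd2 had -0.037 and -0.15 in those last settings; the cause was not tested. Of the 27 most alike genes, 15 were shared by Pearson's r, 10 in cells with at least 2000 genes, 5 in cells with at least 500000 fragments and 17 given genes detected. The GENCODE lengths and the mean of Rock1 without cell 53 were tried after seeing the data. No paired analysis was possible because there is 1 group. Depth limits the low values: in 31 cells 1 fragment in a gene of 1 kb exceeds an FPKM of 1.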
